A study of Mus musculus with 2 samples.

Results

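Live CD45+ leukocytes of mouse cochleae collected 14 days after noise exposure were set directly against those collected 7 days after it. Cells were kept when they had at least 200 detected genes and at most 10% mitochondrial UMIs (unique molecular identifiers, each counting 1 captured RNA molecule). Each kept cell also had at least 10 UMIs of its leading hashtag, which made up at least 80% of its hashtag UMIs. These rules left 393 cells for the comparison, 216 of day 7 and 177 of day 14, out of 1285 assigned cells and 1556 barcodes in the series. A hashtag is an oligonucleotide-tagged antibody against surface proteins of nearly all leukocytes, and it marks the condition a cell came from. Here it was Hashtag3 for day 7 and Hashtag4 for day 14, each with the clones M1/42 and 30F11. Per the labels, cochleae of 6 mice were pooled for each condition, so each day was 1 pool with no replicate. The intervals given are 95% intervals of counting error only, and no test between the days was possible. Hashtag1 marked the control, labelled both sham treated and untreated, and Hashtag2 marked day 3. These pools, with 341 and 551 cells, appear only as levels. The labels give no strain, sex, age or noise dose.

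Neutrophils are short-lived phagocytes that form their granules in sequence while maturing, with primary granule proteases made first, secondary granule proteins next and gelatinase granule proteins late. Division stops before the end of that sequence. B lineage cells alternate between bursts of division and resting stages in which immunoglobulin genes are rearranged. Immediate early genes are transcribed within minutes of many stimuli.

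Over all cells both pools had similar depth, with a median of 7404 UMIs per cell on day 7 and 7190 on day 14, and median mitochondrial shares of 3.36% and 3.11%. Neutrophils were the cells with S100a8 and S100a9 at 300 or more per 10000 gene UMIs, 77 cells on day 7 and 72 on day 14. The cells nearest that threshold were few: 1 and 2 cells lay between 200 and 300, and 3 and 4 cells between 300 and 400. B lineage cells had 3 or more UMIs of Cd79a, the signalling chain of the B cell receptor, and were not neutrophils, which gave 63 and 58 cells. Another 4 cells of each pool outside the neutrophils had 1 or 2 Cd79a UMIs. All 10 fixed neutrophil markers were detected in the neutrophils of both days, and all 12 B lineage markers in the B lineage cells. No neutrophil of either pool had 3 Cd79a UMIs. Depth differed more within neutrophils, with medians of 6961 UMIs on day 7 and 8555 on day 14. In B lineage cells the medians were 5798 and 5996.5, and the summed UMIs 713224 and 468357.

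No difference in the makeup of the leukocytes between the 2 days was detectable at these cell numbers. Neutrophils were 35.6% of the day 7 cells (29.3 to 42.4) and 40.7% of the day 14 cells (33.4 to 48.3), a ratio of 1.14 (0.816 to 1.59). B lineage cells were 29.2% and 32.8%, a ratio of 1.12 (0.773 to 1.63), and among the cells that were not neutrophils they were 45.3% and 55.2%, a ratio of 1.22 (0.838 to 1.77). Cells with T cell markers were 20 of 216 and 13 of 177, and cells with natural killer cell markers were 12 and 6. The ratio farthest from 1 among classes seen on both days was that of cells with myeloid progenitor markers, 13 on day 7 and 5 on day 14, at 0.469 (0.131 to 1.40). Cells with basophil or mast cell markers were 2 on day 7 and 0 of 177 on day 14, which allows a share of up to 1.69% if 3 cells are taken as the limit of a count of 0, and up to 2.06% by the exact binomial interval. The interval of every ratio of shares computed included 1, and the intervals do not cover differences between mice.

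**Figure D1:**
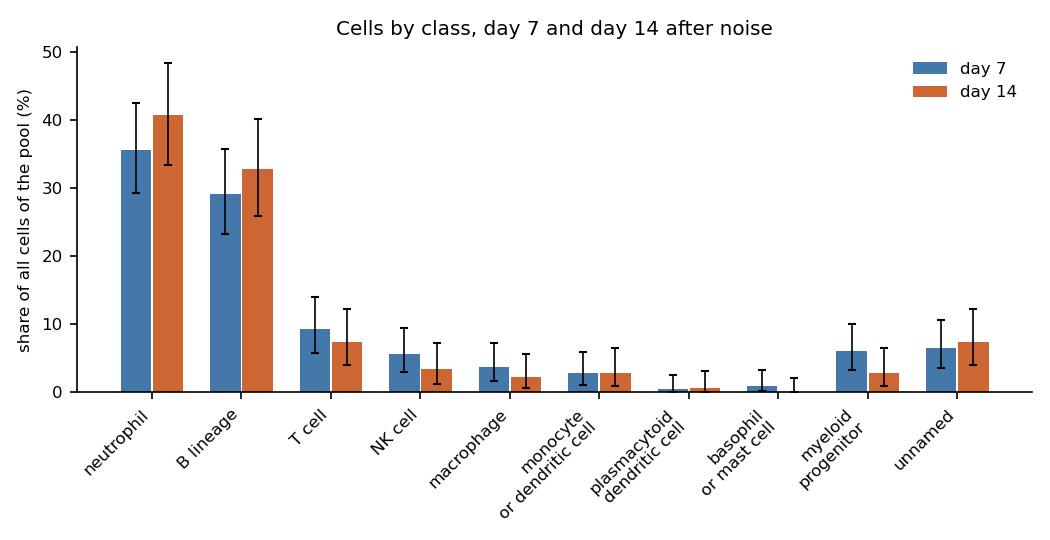
Share of all cells of a pool, in percent, for each class on day 7 and day 14; bars are shares and error bars exact 95% binomial intervals of counting error. The intervals of the 2 days overlap in every class, with neutrophils at 35.6% and 40.7% and B lineage cells at 29.2% and 32.8%.

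In neutrophils, genes of mitosis and DNA replication were higher on day 14, and they came from 9 dividing cells that also made secondary granule RNA. Late maturation genes such as Mmp9 were lower in the neutrophils of high secondary granule RNA, and the primary granule genes Elane, Mpo and Prtn3 were nearly all in 2 cells of day 7. UMIs were summed over the neutrophils of a pool and scaled to 1000000 gene UMIs (CPM). A gene counted as measured when the 2 pools together held 20 or more of its UMIs. Of 4990 such genes, 570 (11.4%) were at least 1.5-fold higher on day 14 and 875 (17.5%) at least 1.5-fold lower, with a median log2 ratio of -0.16 over all of them. Gene positions are on GRCm38.

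A group of 4 day 7 cells passed the S100 threshold but carried progenitor or monocyte genes, and held 15.85% of the neutrophil UMIs of that pool. In 2 of them Elane, the protease neutrophil elastase, had 472 and 562 UMIs and Mpo, myeloperoxidase, had 340 and 285. These 2 cells held 96.1% of the 2556 UMIs of Elane, Mpo and Prtn3 in the day 7 neutrophils. In the other 2, the monocyte genes F13a1 (39 and 36 UMIs), Ly6c2 (76 and 74) and Ccr2 (15 and 12) were present, S100a8 and S100a9 were low at 392 and 524 per 10000, and replication and mitosis genes stood at 114 and 111 per 10000. The summed level of Elane, Mpo, Prtn3, F13a1 and Ccr2 was 31.9 or more per 10000 in the 4 cells. The next cell of day 7 had 5.30 and the highest of day 14 had 6.59, so no day 14 cell was of this kind. The same sum reached 20 per 10000 in 4 sham and 5 day 3 neutrophils. This grouping was chosen after the values were seen, and results are given with and without the 4 cells. Without them 1124 of 4544 genes were at least 1.5-fold higher on day 14 and 704 lower, with a median log2 ratio of -0.01.

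The primary granule genes Elane, Mpo and Prtn3 were nearly all in 2 of those cells. Elane was at 1425 CPM on day 7 and 6.02 on day 14, a ratio of 0.00422 (0.00137 to 0.00988). Mpo was at 855 and 4.81 CPM. Of the 7 primary granule genes 6 were at least 1.5-fold lower on day 14, but 70 of 77 day 7 neutrophils and 60 of 72 day 14 neutrophils had no UMI of Elane, Mpo or Prtn3. Without the 4 cells only 2 of the 7 genes were measured, of which 1 was higher on day 14 and none lower.

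Genes of cell division were higher on day 14. All 24 measured mitosis genes had ratios above 1 and 20 were at least 1.5-fold higher, with a median log2 ratio of 1.24. Without the 4 cells, 24 of 24 were higher with a median of 3.81, where genes at 0 on day 7 were set to the floor of 3 UMIs. Of the DNA replication genes 6 of 11 were higher (median 0.68), and 8 of 8 without the 4 cells (2.43). Without the 4 cells the replication list summed to 65.6 CPM on day 7 and 567 on day 14, and mitosis to 176 and 2414. Members then reached 20 UMIs mainly through day 14. The counts of 8 of 8 and 24 of 24 were thus nearly fixed in advance and add no support. Cdkn3 (ENSMUSG00000037628, chr14:46760541-46771669), a phosphatase acting on cyclin-dependent kinases, was at 5.38 CPM on day 7 and 63.8 on day 14, a ratio of 11.8 (4.36 to 45.1). Cdk1, the kinase that drives entry into mitosis, was at 21.5 and 113 CPM, a ratio of 5.25 (3.07 to 9.56). Rrm2, a subunit of the enzyme that makes deoxynucleotides, was at 20.2 and 131 CPM, a ratio of 6.49 (3.77 to 12). Prc1 and Cdca8, which act at the mitotic spindle, had ratios of 5.43 and 4.85, and Gmnn, the inhibitor of repeated replication licensing, 4.96. H2afx, a histone variant, Stmn1, a regulator of microtubules, and Nusap1, a spindle protein, had ratios of 4.12, 3.56 and 3.54. Without the 4 cells the day 7 neutrophils held 0 UMIs of Cdk1, Rrm2, Prc1 and Cdca8, 1 of Cdkn3 and Nusap1, 2 of Gmnn and 3 of H2afx and Stmn1. With the floor of 3 UMIs in place of 0 on day 7, Rrm2 was then 27.3-fold higher on day 14 and Cdk1 23.6-fold. These ratios rest on that floor and are not exact lower limits. Top2a, the topoisomerase that untangles replicated DNA, had 4 UMIs against 229.

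The promoters of 2 of these genes are shown because the mitosis genes moved together and the CCAAT box, a short element common in promoters of mitotic genes, was found in 19 of 22 of them. The 250 bases before the start of Cdkn3 (chr14:46760291-46760540, plus strand) and Top2a (chr11:99024190-99024439, minus strand) are from RefSeq on GRCm38.p6, read 5′ to 3′ on the gene's strand, with CCAAT or its reverse complement ATTGG in capitals.
Cdkn3: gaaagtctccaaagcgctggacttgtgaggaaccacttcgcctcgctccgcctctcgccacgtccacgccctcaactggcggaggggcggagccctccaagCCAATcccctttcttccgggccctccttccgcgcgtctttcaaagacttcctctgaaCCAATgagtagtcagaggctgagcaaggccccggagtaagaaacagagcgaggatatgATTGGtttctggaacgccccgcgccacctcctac
Top2a: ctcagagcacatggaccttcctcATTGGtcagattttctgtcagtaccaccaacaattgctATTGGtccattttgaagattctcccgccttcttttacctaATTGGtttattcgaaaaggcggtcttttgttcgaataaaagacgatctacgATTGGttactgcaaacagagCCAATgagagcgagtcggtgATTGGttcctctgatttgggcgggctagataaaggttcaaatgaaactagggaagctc
Cdkn3 held 3 matches and Top2a 6. Over all 27025 genes with a promoter in the table, 37.5% held CCAAT on either strand. A match describes the letters and not a bound site.

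The dividing cells could be counted one by one. Each cell was thinned to 2000 UMIs and called cycling with 10 or more UMIs of the replication and mitosis lists. Cycling neutrophils were 2 of 77 on day 7 and 9 of 66 on day 14, after 6 shallower day 14 cells were left out, a ratio of 5.25 (1.09 to 49.9), or 2.39 on the log2 scale. The log2 interval included 0 without the 5% of cells with the most UMIs (1.87, -0.61 to 5.22), with cells assigned by HTODemux (2.19, -0.20 to 5.49) and with an S100 threshold of 100 per 10000 (1.80, -0.20 to 4.32). Unthinned, at 50 per 10000, the counts were 2 of 77 and 9 of 72, and 8 of the day 14 cells were called both ways. Both cycling cells of day 7 were the 2 with monocyte genes. Without the 4 cells, day 7 had 0 of 73, which allows a share of up to 4.11% by the limit of 3 cells, against 9 of 66 (13.6%) on day 14. Against that limit the share was 3.32-fold higher, and the exact lower limit of the ratio was 2.18. Sham stood at 3 of 77 and day 3 at 15 of 247 (6.07%), between day 7 (2.60%) and day 14 (13.6%).

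All 9 cycling cells of day 14 were among the neutrophils with Camp and Ngp, secondary granule genes, at 100 or more per 10000. In that class 0 of 27 cells cycled on day 7, which allows up to 11.1% by the limit of 3 cells and 12.8% by the exact interval, and 9 of 31 (29.0%, 14.2 to 48.0) on day 14. The 9 cells had 25370 to 38270 UMIs, S100a8 and S100a9 at 3216 to 3835 per 10000 and Camp and Ngp at 683 to 1078. Mki67 and Top2a together had 12 to 53 UMIs in each, and F13a1 and Ccr2 were at most 0.261 per 10000. They held 35.3% of the neutrophil UMIs of day 14, so they weigh heavily in every summed value. Doublets within a pool were not removed. None of the 9 cells had more than 1 Cd79a UMI, and their hashtag purity was 97.1% to 99.5%.

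**Figure D2:**
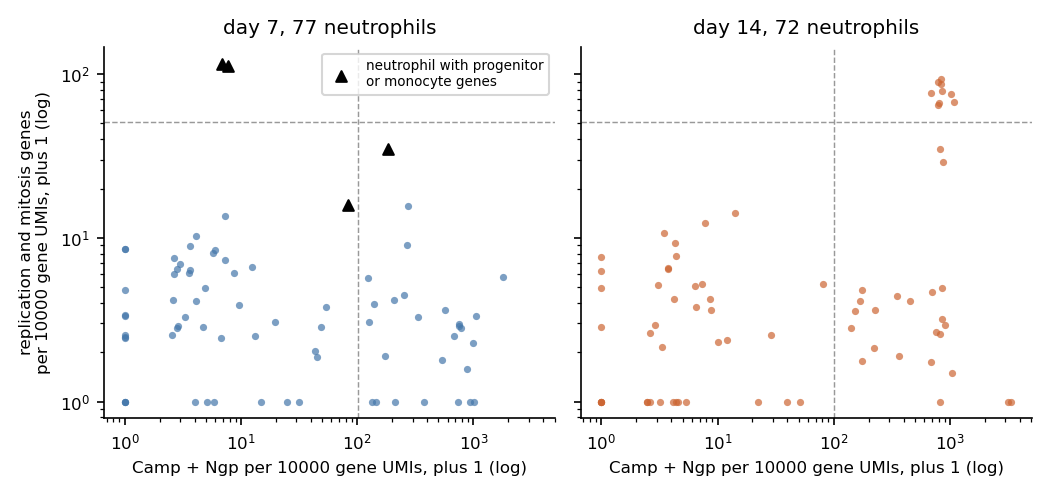
Each neutrophil by its Camp and Ngp level (x axis) and its level of replication and mitosis genes (y axis), per 10000 gene UMIs plus 1 on log axes, for day 7 and day 14; dashed lines mark 100 and 50 per 10000, and black triangles are the 4 day 7 cells with progenitor or monocyte genes. The upper right corner holds 9 cells on day 14 and none on day 7, and 8 of these 9 were also called cycling after thinning.

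Secondary granule genes had ratios nearer to 1 than the division genes. Camp, the cathelicidin precursor, was at 15740 CPM on day 7 and 30300 on day 14, a ratio of 1.93 (1.88 to 1.97), and Ngp, a granule protein, had a ratio of 1.82. Ltf, lactoferrin, stood at 1.48 and Lcn2, the siderophore-binding lipocalin, at 1.36. Chil3 (chr3:106147554-106167564), a chitinase-like protein of maturing neutrophils, was at 711 and 2263 CPM, a ratio of 3.18 (2.89 to 3.51). Within cells of high Camp and Ngp the ratio of Chil3 was 2.34, and 1.23 (1.09 to 1.39) among those under 50 per 10000 of replication and mitosis genes. That last group held 23 cells of day 14, of which 1, at 34.1 per 10000, was called cycling after thinning. Among the 22 cells cycling by neither call the ratio of Chil3 was 0.898 (0.782 to 1.03). Of 12 secondary granule genes 4 were at least 1.5-fold higher, with a median log2 ratio of 0.33. Without the 4 cells 4 of 12 were higher (0.11), beside 1124 of 4544 measured genes. In cells of high Camp and Ngp without the 4 cells 1 was higher and 1 lower (-0.02), beside 1070 and 661 of 3595. Of those under 50 per 10000 of replication and mitosis genes 0 of 12 were higher and 1 lower (0.06), beside 425 and 348 of 2613. Camp and Ngp themselves define that class. Cells of high Camp and Ngp were 27 of 77 on day 7 and 32 of 72 on day 14, a ratio of 1.27 (0.736 to 2.20).

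Genes of late maturation were lower on day 14 in the cells of high Camp and Ngp. The cells of that class were not alike on the 2 days. Without the 4 cells, their median of Camp and Ngp was 451 per 10000 on day 7 and 798 on day 14. Among those cycling by neither call it was 451 and 695. The part of this difference in the ratios was not tested. Mmp9 (chr2:164940780-164955850), gelatinase B, was at 1650 CPM on day 7 and 920 on day 14, a ratio of 0.558 (0.509 to 0.611), and 0.479 without the 4 cells. In cells of high Camp and Ngp without the 4 cells its ratio was 0.327, and in cells of low Camp and Ngp 0.876. Mmp8, Retnlg and Csf3r, the receptor for granulocyte colony-stimulating factor, had ratios of 0.431, 0.400 and 0.441 in the former and 0.976, 1.22 and 0.984 in the latter. Of the 17 genes of the list, 3 were at least 1.5-fold lower in all neutrophils (median log2 -0.39), a share near the 17.5% of all measured genes, and 9 without the 4 cells (-0.62). In cells of high Camp and Ngp without the 4 cells 12 of 16 were lower (-1.04), beside 661 of 3595 measured genes. Under 50 per 10000 of replication and mitosis genes 5 of 16 were lower there (-0.39), beside 348 of 2613 measured genes. Among cells cycling by neither call 3 of 16 were lower (-0.23), beside 299 of 2490, with Mmp9 at 0.664 (0.581 to 0.758).

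The remaining lower genes were of several kinds. Dusp6, a phosphatase that turns off ERK, was at 114 CPM on day 7 and 42.1 on day 14, a ratio of 0.368 (0.241 to 0.552). Ndst1, an enzyme of heparan sulfate synthesis, Myadm, a membrane protein of myeloid cells, and Atp6ap1, an accessory subunit of the vacuolar proton pump, had ratios of 0.251, 0.438 and 0.419. Anxa5, which binds phosphatidylserine, and Psap, the precursor of lysosomal saposins, had ratios of 0.461 and 0.499. These 6 were lower without the 4 cells too, at 0.218 to 0.646. Npc2, a lysosomal cholesterol carrier, and Ramp1, a receptor partner for calcitonin gene-related peptide, had ratios of 0.358 and 0.345, and 0.732 (0.449 to 1.19) and 0.70 (0.399 to 1.23) without the 4 cells. Hsp90ab1, a chaperone, had a ratio of 0.50 with the 4 cells and 1.09 without them, so its lower level rested on those cells.

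**Figure D3:**
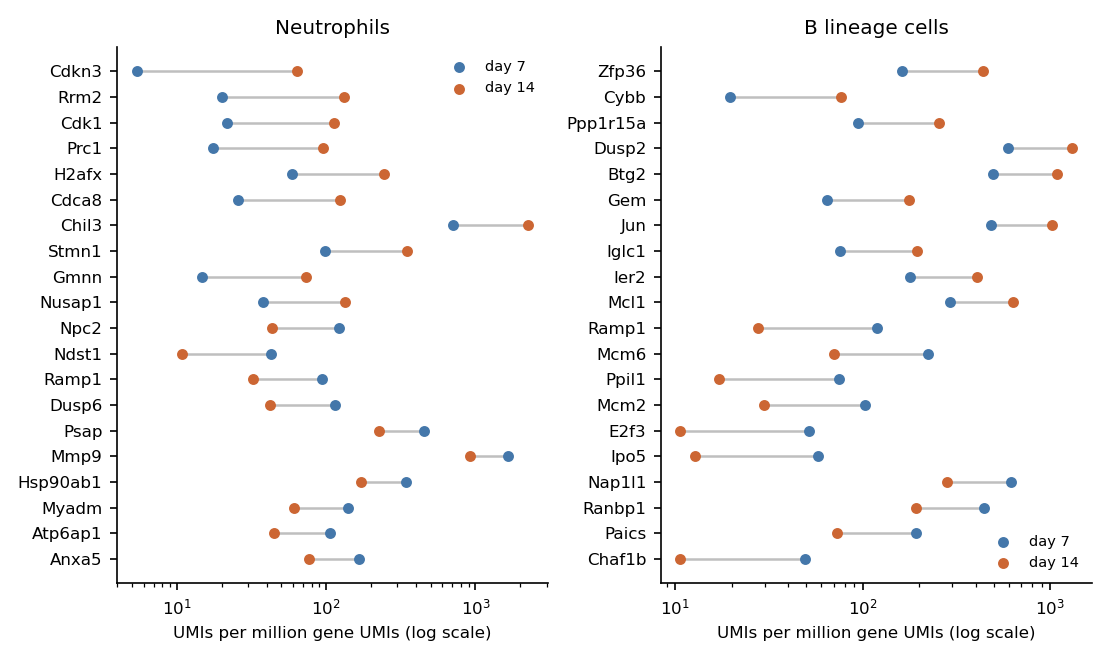
Level of each named gene in CPM on a log axis, day 7 and day 14 joined by a line, in neutrophils (left) and B lineage cells (right). In neutrophils Cdkn3 spans 5.38 to 63.8 CPM and Mmp9 1650 to 920; in B lineage cells Zfp36 spans 163 to 438 and Mcm6 223 to 70.5.

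Ribosomal protein genes lay on opposite sides of 1 with and without the 4 cells. Of 88 measured cytosolic ribosomal protein genes 30 were at least 1.5-fold lower on day 14 in all neutrophils (median log2 -0.45), but 69 were higher without the 4 cells (0.95). The 4 cells had ribosomal protein genes at 1649 to 3084 per 10000. Among cells of high Camp and Ngp under 50 per 10000 of replication and mitosis genes 70 of 84 were higher (0.85), beside 425 of 2613 measured genes. Among those cycling by neither call 42 of 84 were higher (0.57), beside 355 of 2490. The median of Camp and Ngp in the latter cells was 451 per 10000 on day 7 and 695 on day 14. Among cells of low Camp and Ngp without the 4 cells 2 of 72 ribosomal protein genes were higher and 11 lower (-0.17). Of all 2255 genes measured there 218 were higher and 289 lower.

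Signalling genes of neutrophils lay on both sides of 1, depending on the cells summed. Of 21 immediate early genes none was at least 1.5-fold higher and 2 were lower over all neutrophils (median log2 -0.09), and 1 of 20 was higher and 3 lower without the 4 cells (-0.20). Also without them, 6 of 17 were lower and 1 higher in cells of high Camp and Ngp (-0.39). There the median level per cell was 32.3 per 10000 on day 7 and 22.3 on day 14. Of all 3595 genes measured in those cells 661 were lower and 1070 higher. In cells of low Camp and Ngp 3 of 17 immediate early genes were higher and 1 lower (0.28), with medians of 102 and 145. Of all 2255 genes measured there 218 were higher and 289 lower. None of 6 NADPH oxidase genes passed 1.5-fold in either direction over all neutrophils, with or without the 4 cells. Of 10 genes of the type I interferon response 4 were lower (-0.28), and 1 of 8 without the 4 cells (-0.29). In cells of low Camp and Ngp 4 of 6 were higher (0.76), beside 313 of 2790 measured genes. Without the 4 cells 2 of 5 were higher (0.58), beside 218 of 2255. The summed interferon level per cell then had medians of 3.52 per 10000 on day 7 and 4.27 on day 14. The highest cells stood at 40.1 and 130.9, and their part in the ratios was not tested. In cells of high Camp and Ngp without the 4 cells 3 of 3 interferon genes were lower (-1.05), beside 661 of 3595 measured genes. Their summed level per cell had medians of 3.57 on day 7 and 1.66 on day 14, and of 3.57 and 2.51 among those cycling by neither call. Cxcr4, the receptor that holds neutrophils in marrow, was at 289 and 167 CPM, a ratio of 0.578 (0.463 to 0.718). Cxcl2, a chemokine that attracts neutrophils, went the other way at 160 and 496 CPM, a ratio of 3.09 (2.52 to 3.83). Its highest cell held 24.4% of the UMIs on day 7 and 27.2% on day 14. The ratio was 3.78 in cells of low Camp and Ngp and 6.14 (2.47 to 19.7) in those of high Camp and Ngp, both without the 4 cells.

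Summed over all B lineage cells, immediate early genes were higher on day 14 and DNA replication genes lower. Of 6339 measured genes 877 (13.8%) were at least 1.5-fold higher on day 14 and 798 (12.6%) at least 1.5-fold lower, with a median log2 ratio of 0.02. Cycling B lineage cells were 18 of 62 on day 7 (29.0%) and 10 of 58 on day 14 (17.2%), a ratio of 0.594 (0.245 to 1.36), and they held 60.7% and 38.1% of the B lineage UMIs. Each gene group is therefore given for all cells and for cells split at 50 per 10000 of replication and mitosis genes. That split left 43 and 48 cells that were not cycling and 20 and 10 that were, a threshold chosen after the values were seen.

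Of 20 DNA replication genes, 17 were at least 1.5-fold lower, with a median log2 ratio of -0.98. Among cells that were not cycling only 4 were measured, of which 2 were higher and none lower (0.45). Mcm6 (chr1:128331590-128359664) and Mcm2, subunits of the helicase that opens replication origins, were at 223 and 70.5 CPM and at 102 and 29.9 CPM, ratios of 0.316 (0.210 to 0.462) and 0.292 (0.152 to 0.522). Chaf1b, which loads histones on new DNA, and E2f3, a transcription factor of S phase, had ratios of 0.218 and 0.206. Paics, an enzyme of purine synthesis, Ranbp1 and Ipo5, of nuclear transport, and Nap1l1, a histone chaperone, had ratios of 0.378, 0.434, 0.223 and 0.451. Ramp1 and the splicing factor Ppil1 had ratios of 0.233 and 0.230. Within cycling cells 7 of 20 replication genes were lower (median -0.30), beside 640 of 4427 measured genes. Mcm6 was there at 0.486 (0.313 to 0.731) and Mcm2 at 0.445 (0.220 to 0.826). Mitosis genes were lower in 6 of 26 over all B lineage cells (-0.40). Within cycling cells, by contrast, 6 of 26 were higher and 1 lower (0.41), beside 629 of 4427 measured genes higher.

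By stage, cells with 2 or more UMIs of the precursor genes Vpreb1, Igll1, Rag1 and Dntt were 38 of 63 on day 7 and 30 of 58 on day 14, a ratio of 0.858 (0.513 to 1.42). Of them 14 of 37 cycled on day 7 and 5 of 30 on day 14, a ratio of 0.441 (0.124 to 1.29). In the other B lineage cells 4 of 25 and 5 of 28 cycled, a ratio of 1.12 (0.240 to 5.63). The interval of each ratio included 1, so no difference in cycling between the days was detectable in B lineage cells at these cell numbers.

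The promoter of Mcm6 is shown for the replication genes, and that of Btg2 for the immediate early genes described next. Both are the 250 bases before the start from RefSeq on GRCm38.p6, Mcm6 at chr1:128359706-128359955 and Btg2 at chr1:134079156-134079405, both on the minus strand. Capitals mark, in Mcm6, the octamers TTTCGCGC or TTTGGCGC, known as E2F sites, and in Btg2 the octamer TGACGTCA, known as a cyclic AMP response element, on either strand.
Mcm6: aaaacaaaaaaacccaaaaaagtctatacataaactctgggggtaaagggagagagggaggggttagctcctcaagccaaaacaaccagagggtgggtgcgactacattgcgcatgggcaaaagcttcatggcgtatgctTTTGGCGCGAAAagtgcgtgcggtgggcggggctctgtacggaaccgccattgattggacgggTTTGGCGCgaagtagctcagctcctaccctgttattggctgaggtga
Btg2: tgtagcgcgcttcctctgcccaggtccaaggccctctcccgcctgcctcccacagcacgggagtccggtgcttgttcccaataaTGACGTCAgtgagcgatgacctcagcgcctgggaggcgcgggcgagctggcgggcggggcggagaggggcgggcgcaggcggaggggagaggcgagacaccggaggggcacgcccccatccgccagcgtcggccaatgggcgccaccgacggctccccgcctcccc
Mcm6 held 3 octamers, 2 of them overlapping, and Btg2 held 1. An E2F octamer was in 3 of 17 replication promoters and in 0.759% of all promoters. TGACGTCA was in 2 of 20 immediate early promoters and in 1.77% of all.

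Immediate early genes were higher on day 14 in 11 of 18 measured members and lower in 1, with a median log2 ratio of 0.95. Zfp36 (chr7:28376784-28380253), which destabilizes cytokine mRNAs, was at 163 CPM on day 7 and 438 on day 14, a ratio of 2.69 (2.13 to 3.41). Dusp2, a phosphatase of MAP kinases, was at 597 and 1311 CPM, a ratio of 2.20 (1.94 to 2.49), and Btg2, an inhibitor of proliferation, at 494 and 1085 CPM, also 2.20 (1.92 to 2.53). Jun, a subunit of AP-1, and Ier2 had ratios of 2.11 and 2.28. Outside this list, Ppp1r15a, which restores translation after stress, Gem, a small GTPase, and Mcl1, a survival factor, had ratios of 2.71, 2.75 and 2.17.

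The difference was smaller among cells that were not cycling. Among cells that were not cycling 5 of 17 immediate early genes were higher and 2 lower (median log2 0.25). Of all 3871 genes measured there 467 were higher and 439 lower. In these cells Zfp36 was at 1.95 (1.46 to 2.64), Jun at 1.66, Ier2 at 1.82, Btg2 at 1.44 and Junb at 1.03. Among cycling cells 12 of 15 were higher (1.08), beside 629 of 4427 measured genes. The makeup of these cells differed between the days: 16 of 20 were precursors on day 7 and 5 of 10 on day 14, and the precursor genes had medians of 13 and 0.738 per 10000. Within cycling precursors 9 of 12 immediate early genes were higher (1.02), and within the other cycling cells, 4 and 5 in number, 6 of 11 (0.99). Beside them, 673 of 3644 and 191 of 1302 measured genes were higher. The summed level per cell had a median of 123 per 10000 on day 7 and 140 on day 14 in cells that were not cycling, and of 37.8 and 102 in cycling cells. The cells of the 2 days overlapped widely in the former, 39.5 to 251 against 27.8 to 322. In the latter the ranges overlapped, 9.26 to 114 against 27.4 to 121, but the interquartile ranges did not, 21.9 to 55.8 against 61.4 to 113.9. In precursors that were not cycling, 22 and 25 cells, the medians were nearly the same, 137.4 per 10000 on day 7 and 136.5 on day 14. NF-kB feedback genes were higher in 7 of 16 (0.52), with Nfkbia, the inhibitor of NF-kB, at 2.0 (1.76 to 2.27) and at 1.53 in cells that were not cycling.

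**Figure D4:**
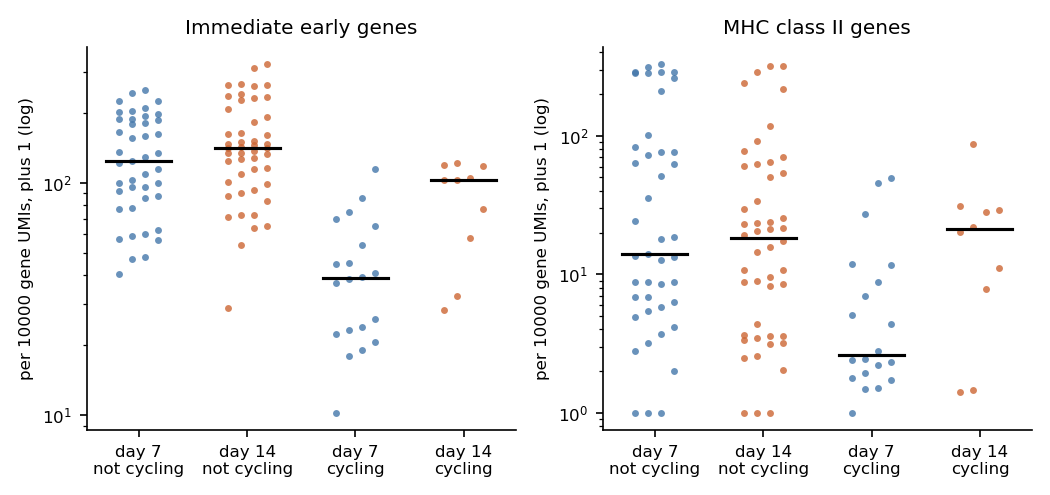
Summed level of immediate early genes (left) and MHC class II genes (right) in each B lineage cell, per 10000 gene UMIs plus 1 on a log axis, by day and by cycling state; lines are medians. Cycling cells of day 14 have the higher medians, 102 against 37.8 for immediate early genes and 20.1 against 1.61 for MHC class II genes, with overlapping cells.

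Genes of B cell identity and antigen presentation had ratios that differed by cycling state and by stage. Of 14 identity genes 4 were at least 1.5-fold higher (median log2 0.44), among them Spib, a transcription factor of B cells, at 2.02 and Cd79b, the partner chain of Cd79a, at 1.64. Among cells that were not cycling the median was 0.10. MHC class II genes were 1 of 10 higher over all cells (0.25). In cells that were not cycling 8 of 10 were lower by summed UMIs (-0.73), beside 439 of 3871 measured genes. Per cell, in the units used above for immediate early genes, their median was higher there, 12.96 on day 7 and 17.21 on day 14. The upper quartile was lower, 79.23 and 54.62. In precursors that were not cycling the medians were 7.625 and 7.521. In cycling cells 6 of 6 were higher by summed UMIs (1.47), beside 629 of 4427 measured genes. Cd74, the invariant chain, had summed ratios of 0.645 (0.590 to 0.705) in cells that were not cycling and 4.18 (3.26 to 5.37) in cycling cells. The share of precursors among cycling cells was lower on day 14, as given above, and split by stage the ratio of Cd74 was 2.76 (1.65 to 4.51) in cycling precursors and 1.53 (1.13 to 2.10) in the other cycling cells. Split by stage alone, 5 of 6 MHC class II genes were higher in precursors (0.74), beside 916 of 5139 measured genes. In the other B lineage cells 6 of 10 were lower (-0.66), beside 415 of 3127. The parts of cycling state and stage in these ratios were not tested. Whether the ratios in cycling and other cells differ beyond the spread between mice was not tested either.

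The lambda light chain genes Iglc1 and Iglc2 and 5 of 7 measured B cell activation genes (median log2 0.66) were higher over all B lineage cells. Among cells that were not cycling the activation list turned, with 1 of 6 higher and 2 lower (-0.32). Of all 3871 genes measured there 467 were higher and 439 lower. Iglc2, a lambda constant gene, was at 184 and 615 CPM, a ratio of 3.35 (2.71 to 4.15), and Iglc1 had a ratio of 2.57, although reads of these near-identical copies can be split uncertainly. With at most 5% mitochondrial UMIs the direction of Iglc2 turned, to a log2 ratio of -1.31. Ighm and Igkc had ratios of 1.57 and 1.44, and Igkc was at 0.796 in cells that were not cycling. Cd69, an early activation marker, was at 384 and 809 CPM, a ratio of 2.11 (1.80 to 2.47), and at 2.60 (2.05 to 3.31) in cells that were not cycling. Cybb, the catalytic subunit of the NADPH oxidase, was at 19.6 and 76.9 CPM, a ratio of 3.92 (2.06 to 7.86). Beside it, the 8 macrophage markers summed to 26 UMIs in the B lineage cells of day 7 and 102 in those of day 14, with C1qc, Adgre1 and Mertk at 0 on both days. Of these UMIs 16 and 97 were of Apoe. Their part in the ratio of Cybb was not tested.

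**Figure D5:**
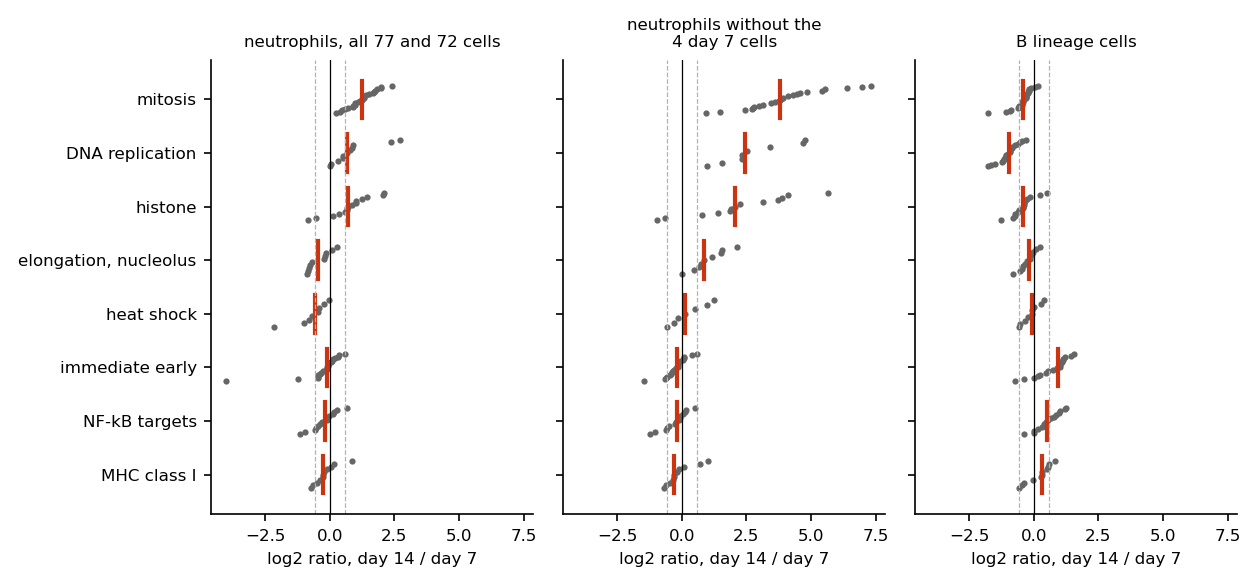
Log2 ratio of day 14 to day 7 of each measured gene (points) in 8 gene lists, with the median of each list (bars), in all neutrophils, in neutrophils without the 4 day 7 cells, and in B lineage cells; dashed lines mark 1.5-fold. Mitosis has medians of 1.24 and 3.81 in the neutrophil panels and -0.40 in B lineage cells, and immediate early genes -0.09 in all neutrophils and 0.95 in B lineage cells.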

How the data were processed

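Gene and hashtag UMI counts were deposited by the authors as filtered matrices of 1556 barcodes, unnormalized per the file headers. Per the submitters' processing notes and the file headers they were made with Cell Ranger 3.1.0 on mm10. The labels name both a v2 and a v3 kit. Counts of each gene were summed over the cells of a pool and lineage and divided by their gene UMIs (CPM). Ratios carry exact conditional Poisson 95% intervals and shares Clopper-Pearson intervals (Python 3.11.15, scipy 1.17.1). Only the ratio and its interval were tested on simulated data, with Poisson counts drawn from the pooled sums. That simulation held no variation between cells, so it cannot show how the intervals behave where few cells carry a gene. Genes needed 20 UMIs in both pools together, and a ratio of 1.5 either way was counted. Ratios against 0 used a floor of 3 UMIs, and the limit of a share of 0 was 3 cells of the total. Named genes were the 10 highest and 10 lowest in each lineage by the interval bound nearest 1, with 30 or more UMIs and at most 25% of the higher pool's UMIs in 1 cell, without variable segments, ribosomal, mitochondrial and gating genes, and list members with the bound farthest from 1. Members and lists were chosen with earlier results of these data known. Hashtag doublets were removed, and doublets within a pool were not. Positions come from GENCODE vM21 (GRCm38), where 30934 of 31053 gene IDs matched. The closing section gives the alternatives that were tried.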

Additional observations from a re-analysis of the deposited data

Results flagged for a closer look

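In 5 gene lists the median log2 ratio of day 14 to day 7 lay on opposite sides of 0 in neutrophils and B lineage cells, at least 1 log2 unit apart. The difference between the lineages was not tested, since each day was 1 pool. The mitosis list had 1.24 in neutrophils and -0.40 in B lineage cells. DNA replication had 0.68 and -0.98, and histone genes 0.72 and -0.43. Immediate early genes had -0.09 in neutrophils and 0.95 in B lineage cells, and glucocorticoid response genes -0.38 and 0.71. These values are over all cells. Without the day 7 cells with progenitor or monocyte genes, the immediate early median was 0.28 in neutrophils of low Camp and Ngp. In those of high Camp and Ngp it was -0.39, and 0.18 among those cycling by neither call. In B lineage cells that were not cycling the median was 0.25. The sides of this list thus depended on the cells summed. Per cell, the median immediate early level over all neutrophils was 60.3 per 10000 on day 7 and 70.1 on day 14.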

How the results depend on the processing

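Every ratio of lineage shares and of cycling shares stayed within its main interval under every alternative computed for it. On the log2 scale the neutrophil share ranged from 0.10 to 0.28 and the B lineage share from -0.17 to 0.29, so the direction of the latter was not stable. The cycling share of all neutrophils ranged from 1.73 to 2.40, and its interval included 0 in the 3 settings named beside it. A gene or list median counted as called at 1.5-fold, the size set in the design. That definition was applied to these comparisons after a first run had used the interval instead, and the values below are all the called log2 ratios that changed sign under it. Counts of genes past 1.5-fold moved with the minimum of UMIs. At 50 UMIs they were 204 higher and 408 lower in neutrophils and 314 and 297 in B lineage cells, and at 5 UMIs 1314 and 1951, and 1916 and 1668. With an S100 threshold of 600 per 10000, 888 genes were higher in neutrophils and the log2 ratio of Eef1a1 was 0.16. With HTODemux, Pcna in neutrophils was -0.14. With at most 5% mitochondrial UMIs, Fcmr and Iglc2 in B lineage cells were -0.61 and -1.31. With each cell weighted alike, Npc2 in neutrophils was 0.01 and Pcna -0.69. In neutrophils of low Camp and Ngp, which include 3 of the 4 cells, 313 genes were higher and the medians were -2.54 for mitosis, -2.07 for histone genes and 0.86 for stefin A genes, whose near-identical copies make them uncertain. There the log2 ratios were 0.44 for BC100530, also uncertain, 0.15 for Mmp9, 0.08 for Slc2a3, -0.49 for Hmgn2, -1.20 for Cebpe, -1.58 for Camp, -1.66 for H2afz, -2.57 for Nusap1, -2.71 for Birc5, -2.89 for H2afx, -3.31 for Ube2c, -3.69 for Mki67, -5.39 for Stmn1 and -5.51 for Top2a. In B lineage precursors Ccnd2 was -0.10. The following settings were chosen after seeing the data. Without the 4 day 7 cells 1124 genes were higher in neutrophils, Eef1a1 was 0.75 and Hsp90ab1 0.12. In neutrophils under 50 per 10000 of replication and mitosis genes 313 were higher, with medians of -0.37 for mitosis and -0.19 for histone genes, and Ccnb2 was -0.92, Top2a -0.89 and H2afz -0.08. In such B lineage cells 467 were higher and 439 lower, with medians of 0.45 for DNA replication and -0.32 for B cell activation, and Egr1 was -0.44, Fcmr -0.20, Tsc22d3 -0.13, Hmgb1 0.11, H2afz 0.17 and Pcna 0.90. The cause of the other changes of sign was not tested. Depth limits the shares: with 27 cells, a count of 0 allowed 11.1% by the limit of 3 cells.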

Other observations

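Apoe, an apolipoprotein of macrophages, was at 22.4 CPM in the B lineage cells of day 7 and 207 in those of day 14, a ratio of 9.23 (5.41 to 16.8), with 41.2% of the day 14 UMIs in 1 cell. Ighg2b had 51 UMIs on day 7, 43.1% of them in 1 cell, and 1 on day 14. Of 76 measured respiratory chain genes of nuclear origin 4 were at least 1.5-fold lower in B lineage cells (median log2 -0.20), and of 73 in neutrophils 1 was lower (-0.04).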
